A study of Mus musculus with 15 samples.

Results

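The prolactin receptor gene Prlr was followed in mouse kidney through every transcript assigned to it, 14 of the 129029 transcripts in the table of linear RNAs. Of these, 11 matched annotated transcripts, 2 were assembled from the reads on the strand of Prlr with a splice pattern of their own, and 1, MSTRG.12085.1, was assembled inside an intron. The gene was chosen by the FPKM of MSTRG.12085.1, whose difference between 24-month and 3-month kidneys stood out, so every value of Prlr in that contrast is given as a description and was not tested. No circular RNA of Prlr was found, since 0 of 11929 circular RNAs were assigned to the gene and 0 overlapped its position, while 16 genes of its signalling pathway had 54.

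Kidney RNA came from 15 male C57BL/6 mice (C57BL/6J in the study's methods), 5 each aged 3, 12 and 24 months, with 1 library per mouse, and all were fed standard chow with no treatment or engineered allele named. Mice are called by the replicate numbers of the labels, 5 to 9 at 3 months, 17 to 21 at 12 months and 31 to 35 at 24 months. Levels are FPKM, fragments scaled for the length of the transcript and the size of the library, and the libraries held between 5.03 and 8.03 gigabases of aligned sequence, computed from the ratio of coverage to FPKM. Markers of kidney segments were high in every mouse (summed proximal tubule markers 1458 to 1960 FPKM), whereas the 3 adrenal cortex markers summed to at most 0.0703 FPKM.

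The prolactin receptor is a class I cytokine receptor. Binding of prolactin brings receptor chains together, the kinase JAK2 attached to them is activated, and STAT5 is phosphorylated and enters the nucleus, where it binds DNA at GAS elements. The receptor is best known for its role in the mammary gland, and it is also found in liver, ovary and kidney. Its gene has several alternative first exons and, in the mouse, alternative last exons, which give a long receptor and short receptors that share the ligand-binding and membrane-spanning parts but differ in the tail inside the cell.

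The coding ends of the receptor forms are shown because the assembled transcripts differ in which of these ends they reach. They were read from the GENCODE M21 transcript sequences (GRCm38), with the last 15 bases common to all 4 forms in lower case and the bases particular to each form in capitals, at most 90 of them.
Long form, ENSMUST00000124470: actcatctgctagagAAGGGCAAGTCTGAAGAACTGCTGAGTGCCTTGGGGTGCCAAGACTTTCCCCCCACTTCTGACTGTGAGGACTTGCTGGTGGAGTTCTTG
Short form, ENSMUST00000128450: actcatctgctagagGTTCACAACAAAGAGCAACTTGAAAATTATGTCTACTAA
Short form, ENSMUST00000148257: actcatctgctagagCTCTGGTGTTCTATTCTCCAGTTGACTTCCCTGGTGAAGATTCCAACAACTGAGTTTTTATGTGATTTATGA
Short form, ENSMUST00000128921: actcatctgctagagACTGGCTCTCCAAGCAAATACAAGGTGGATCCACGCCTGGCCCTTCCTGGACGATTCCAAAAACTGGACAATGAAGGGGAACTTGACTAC
The 4 forms shared 840 coding bases. The long form then added 987 bases, stop codon included, from a last exon at chr15:10328281-10337009 and encoded 608 amino acids. The short forms added 39, 72 and 93 bases and encoded 292, 303 and 310 amino acids. ENSMUST00000128450 had no level of its own in the table.

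The Prlr transcripts lay between positions 10177238 and 10350082 of chromosome 15 in GRCm38, a span of 172845 bases on the plus strand. Annotated transcripts began in 4 groups, the first between 10177238 and 10177781, the second at 10213465 and 10215955, the third at 10223986 and the fourth at 10249560, and a further one, ENSMUST00000127467, began at 10314102 inside the gene. The assembled transcripts MSTRG.12084.12 and MSTRG.12084.13 had 10 exons each and shared a start at 10276136. That position is 98898 bases after the first annotated start and 17515 bases before exon 2, within the first intron. MSTRG.12084.12 ended 1055 bases past the end of the long-form transcript ENSMUST00000124470, and MSTRG.12084.13 ended 902 bases past the end of the short-form transcript ENSMUST00000128921. The table gives the number of exons of an assembled transcript but not their positions, so the receptor forms they encode cannot be read from it.

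The transcript MSTRG.12085.1 ran from 10251512 to 10272080 on the minus strand, opposite to Prlr, with 2 exons and a length of 954 bases. It fell in intron 1 of 11 of the 12 annotated Prlr transcripts and overlapped 0 Prlr exons and 0 other annotated genes. Its 5′ end faced the shared start of the assembled Prlr transcripts, 4056 bases away. The labels name a stranded kit, while whether the counting used strand is not given in the sources used here. Among the 11040 intronic transcripts with a known host strand, 617 (5.59%) were opposite to the host, and 45 of those had 2 or more exons.

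**Figure D1:**
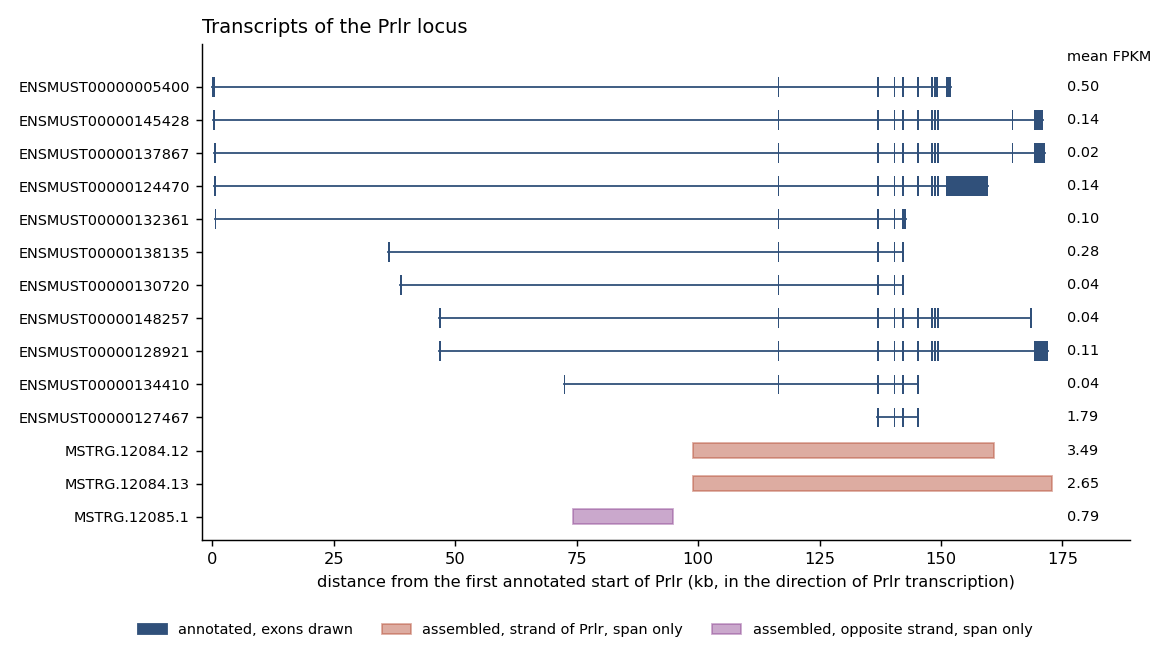
Map of the 14 Prlr transcripts by distance in kilobases from the first annotated start. Annotated transcripts are drawn with their exons, assembled transcripts by their span, and the mean FPKM over 15 mice stands at the right. The assembled transcripts begin well inside the first intron and carry the highest means, 3.49 and 2.65 FPKM, and MSTRG.12085.1 lies just before them on the other strand.

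The sequences upstream of the annotated starts are shown because little of the FPKM was assigned to transcripts that begin there, except in mice 6 and 18. In mouse 18 the first start held 0.809 FPKM and the third 0.865 FPKM, of 4.14 FPKM in all. They are the 250 bases before the first and second of the 3 RefSeq starts of Prlr on the plus strand (GRCm38.p6), in lower case with any match to the GAS letters TTCNNNGAA in capitals.
Before the first annotated start, chr15:10176988-10177237: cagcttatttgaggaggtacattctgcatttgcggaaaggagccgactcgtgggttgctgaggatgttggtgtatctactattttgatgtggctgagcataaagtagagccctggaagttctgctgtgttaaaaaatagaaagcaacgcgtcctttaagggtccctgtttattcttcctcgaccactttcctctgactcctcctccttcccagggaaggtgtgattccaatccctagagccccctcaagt
Before a start 80 bases ahead of the third group, chr15:10223656-10223905: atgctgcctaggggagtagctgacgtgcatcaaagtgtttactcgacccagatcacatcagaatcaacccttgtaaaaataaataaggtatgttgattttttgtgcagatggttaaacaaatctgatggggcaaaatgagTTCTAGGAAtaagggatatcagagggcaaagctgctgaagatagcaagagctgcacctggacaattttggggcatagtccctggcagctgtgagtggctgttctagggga
TTCNNNGAA reads the same on either strand and was found once in the window of the second start and in neither that of the first nor that of the third, which lies at exon 2 and is not shown. Of 32851 RefSeq promoter windows of 300 bases, 8.30% held such a match. The letters TATAAA, on either strand, were in 13.6% of all windows, the letters GGGCGG were in 35.7%, and the 3 Prlr windows held neither. No RefSeq start of Prlr lay at the shared start of the assembled transcripts, so no window was read there.

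Kidney Prlr was highest at 24 months. The summed level of the 14 transcripts was 2.05, 13.97, 5.63, 8.62 and 4.66 FPKM in 3-month mice 5 to 9. It was 8.25, 4.14, 6.83, 7.60 and 6.65 FPKM in 12-month mice 17 to 21. It was 13.61, 17.83, 21.39, 14.83 and 15.995 FPKM in 24-month mice 31 to 35. In FPKM, every 24-month kidney was above every 12-month kidney, and all but mouse 6 of the 3-month group were below every 24-month kidney. In aligned bases, which are not scaled for transcript length, the ages overlapped. Mouse 35 had 348226 bases on Prlr among 7.00 aligned gigabases. Mouse 17 at 12 months had 363439 among 7.21, and mouse 8 at 3 months had 338642 among 5.03. The other 24-month mice had 623531 to 829747 bases.

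Between 12 and 24 months the sum rose from 6.69 ± 1.56 to 16.73 ± 3.03 FPKM (SD, n = 5 each), a difference of 1.22 ± 0.17 (SE) on the log2(FPKM + 1) scale. This passed the limits used here for a call, an unadjusted p under 0.05 with a log2 difference beyond 1 in limma, but not adjustment over all genes (adjusted p = 0.297). Only 58 of 32372 genes, 0.179%, were called in this contrast, 28 of them higher (0.0865%), and 0.494% were higher without overlap. The sum includes MSTRG.12085.1, which chose the gene and made up 7.15 ± 1.66% of it at 12 months and 11.4 ± 3.44% at 24 months. Without that transcript, for those on the strand of Prlr alone, the difference was 1.14 ± 0.18 (adjusted p = 0.525). For the annotated transcripts alone it was 0.80 ± 0.21 (adjusted p = 0.788), which is short of a call. The 5 proximal tubule markers summed to 1619 to 1960 FPKM at 12 months and 1458 to 1758 FPKM at 24 months. The 24-month mice had also entered the choice of the gene. In bulk kidney RNA, more cells with the receptor and more of its RNA per cell cannot be told apart.

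Between 3 and 12 months no difference in the sum was detected (0.11 ± 0.38, limma, adjusted p = 0.910), with 6.99 ± 4.55 FPKM at 3 months. The 3-month mice spread widely, from 2.05 in mouse 5 to 13.97 in mouse 6, and without mouse 5 the difference was -0.18. Between 3 and 24 months the difference, given as a description, was 1.33 ± 0.37.

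**Figure D2:**
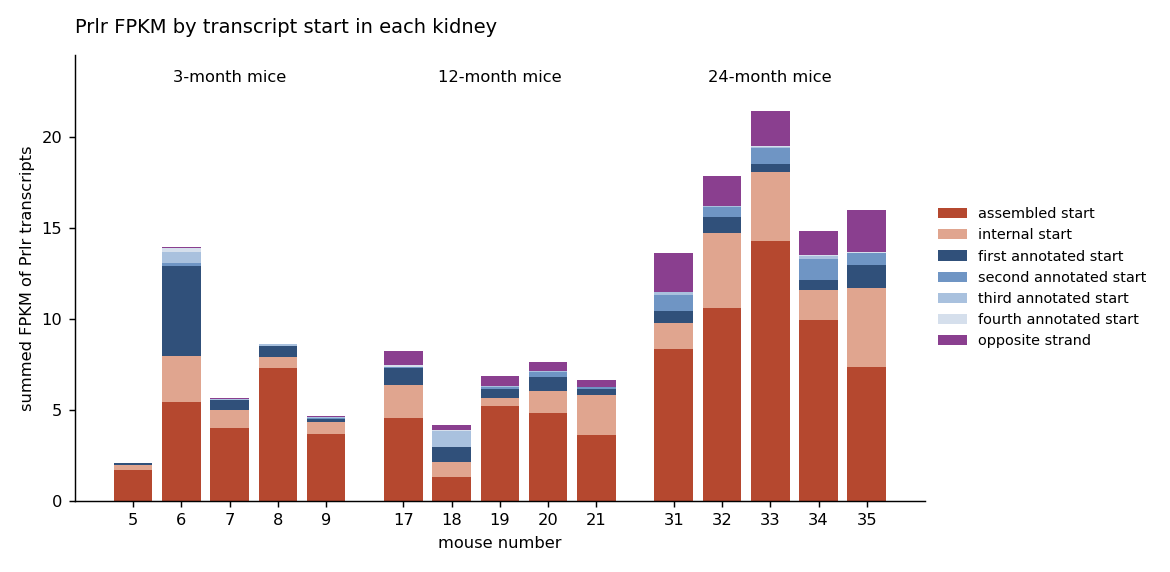
Summed FPKM of Prlr transcripts in each of the 15 kidneys, stacked by where the transcripts begin. The assembled start makes up the largest segment in all kidneys, mouse 6 alone has a large segment of the first annotated start (4.93 FPKM), and the segment of the opposite strand grows from at most 0.0592 FPKM at 3 months to between 1.32 and 2.33 FPKM at 24 months.

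Transcripts of the assembled start were assigned the largest part of the Prlr FPKM in each mouse. Annotated and assembled transcripts overlap, so these shares rest on how StringTie divided the reads among them, which was not tested. MSTRG.12084.12 and MSTRG.12084.13 together made up 71.2 ± 18.7% of the summed FPKM at 3 months, 56.0 ± 16.2% at 12 months and 60.1 ± 8.57% at 24 months (SD, n = 5 each). The share ran from 31.5% in mouse 18 to 84.3% in mouse 8 and was 39.0% in mouse 6 and 46.0% in mouse 35. Their sum was 3.89 ± 1.56 FPKM at 12 months and 10.10 ± 2.67 FPKM at 24 months. It lay between 7.35 and 14.30 FPKM in the 24-month kidneys and between 1.31 and 5.19 FPKM in the 12-month kidneys.

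MSTRG.12084.12, which ends with the long-form end, was at 0.966, 2.003, 2.27, 4.38 and 1.92 FPKM in the 3-month mice. It was at 3.63, 1.31, 3.11, 2.49 and 2.40 FPKM in the 12-month mice. In the 24-month mice it was at 6.38, 6.64, 8.03, 6.36 and 0.503 FPKM, so 4 of these mice were above all younger ones and mouse 35 was below all of them. With that mouse included the difference between 24 and 12 months was 0.69 ± 0.47, not past the unadjusted limit (limma, adjusted p = 0.838).

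MSTRG.12084.13, which ends with the short-form end, was at 0.735, 3.45, 1.76, 2.89 and 1.74 FPKM in the 3-month mice. It was at 0.924, 0, 2.08, 2.31 and 1.21 FPKM in the 12-month mice and at 1.96, 3.95, 6.27, 3.57 and 6.85 FPKM in the 24-month mice. It was the one Prlr transcript called between 24 and 12 months (1.29 ± 0.37, limma, adjusted p = 0.838), where 1 of 13 tested was called against 0.402% of all transcripts. The groups overlapped, since mouse 31 was below 2 of the 12-month mice.

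The split between both ends differed widely among mice of the same age. The long-end transcript took 52.5 ± 9.25% of the pair at 3 months, 71.6 ± 18.9% at 12 months and 53.2 ± 27.0% at 24 months. In mouse 35 it took 6.85%, and in mouse 18, where MSTRG.12084.13 was listed at 0, it took 100%. StringTie divides reads among overlapping transcripts of a gene, and how much of this split comes from that division was not tested.

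**Figure D3:**
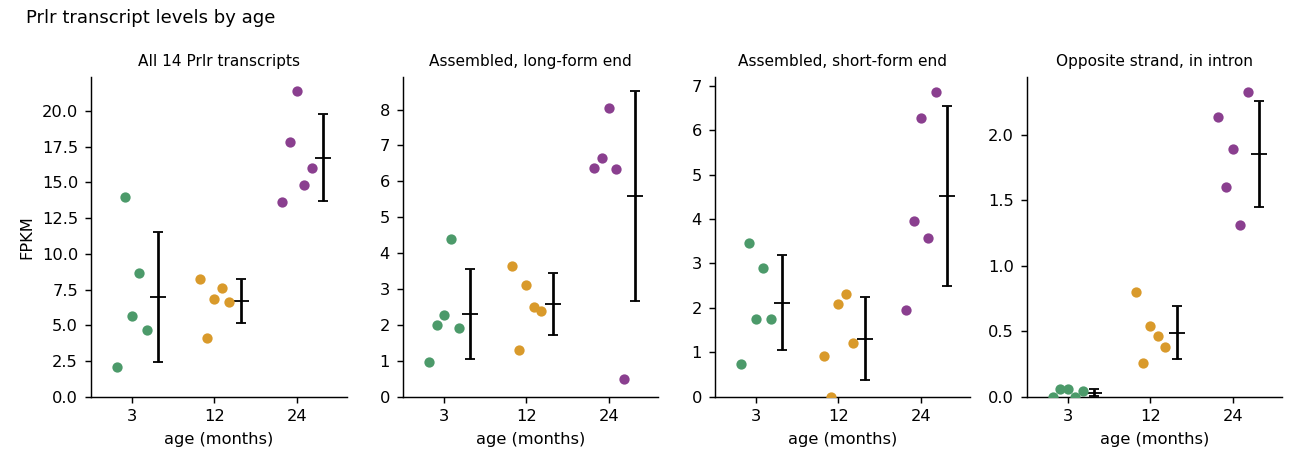
FPKM of the summed Prlr transcripts, the assembled transcripts with long-form and short-form ends and the transcript on the opposite strand, by age in months. Each point is a mouse and the bars are the mean and SD of 5 mice. The 24-month points of the sum lie above all 12-month points, the long-end transcript has a single low 24-month mouse at 0.503 FPKM, and the opposite-strand transcript separates all 3 ages.

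ENSMUST00000127467, a partial annotated coding transcript that begins just before exon 3, was the third Prlr transcript with a mean of at least 1 FPKM. It was at 0.284, 2.52, 0.964, 0.632 and 0.662 FPKM at 3 months and at 1.80, 0.824, 0.458, 1.25 and 2.21 FPKM at 12 months. At 24 months it was at 1.43, 4.11, 3.76, 1.65 and 4.36 FPKM, and the groups overlapped at each step. It was 0.79 ± 0.30 higher at 24 than at 12 months (past the unadjusted limit, limma adjusted p = 0.838) and 1.02 ± 0.33 higher than at 3 months, the latter as a description.

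Little of the FPKM was assigned to the annotated full-length forms. ENSMUST00000124470, the long form from the first annotated start, was at 1.99 FPKM in mouse 6, at 0.00296, 0.062 and 0.0525 FPKM in mice 5, 7 and 8, and listed at 0 in mouse 9 and in all 12-month and 24-month mice. The short form ENSMUST00000128921 from the third start reached 0.588 FPKM in mouse 6 and 0.865 FPKM in 12-month mouse 18 and was at most 0.115 FPKM elsewhere. The short form ENSMUST00000148257 was at most 0.111 FPKM in any mouse. An exact 0 in such a table may be a failed estimate, so these values do not show absence of the annotated receptor forms.

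Transcripts of the first annotated start set mouse 6 apart. They summed to 4.93 FPKM there, 35.3% of its Prlr signal, against 0.0687 to 0.622 FPKM in the other 3-month mice, 0.322 to 0.921 FPKM at 12 months and 0.450 to 1.25 FPKM at 24 months. Most of it was ENSMUST00000005400, an annotated retained-intron transcript, at 2.84 FPKM in mouse 6 and at most 0.886 FPKM in the others. The 2 principal cell markers, Aqp2 and Aqp3, summed to 163.4 FPKM in mouse 6, between 39.3 and 99.96 FPKM in the other 3-month mice and to at most 75.5 FPKM at the later ages. Most of this was Aqp2, at 133.8 FPKM in mouse 6 against 25.9 to 73.7 FPKM in the other 3-month mice. Aqp3 was at 29.6 FPKM against 13.4 to 26.3 FPKM. Mouse 6 also had the highest podocyte and the lowest leukocyte marker sum of its age (56.0 and 2.66 FPKM). The part of these cell types in the Prlr values of mouse 6 was not tested. Without mouse 6 the sum over all Prlr transcripts at 12 months was 0.39 higher than at 3 months, still not past the test.

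The second annotated start, although weak, was higher at 24 months. ENSMUST00000138135, an annotated processed transcript, was at 0, 0.166, 0, 0 and 0.074 FPKM at 3 months and at 0.0659, 0, 0.0603, 0.275 and 0.129 FPKM at 12 months. At 24 months it was at 0.587, 0.422, 0.741, 1.12 and 0.616 FPKM, above every younger mouse. The difference from 12 months was 0.61 ± 0.14 (past the unadjusted limit, limma adjusted p = 0.838). ENSMUST00000130720, which begins at the same group, was listed at 0 in all 3-month mice, at 0 to 0.0598 FPKM at 12 months and at 0.0334 to 0.272 FPKM at 24 months.

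Across the 14 transcripts, 0 were called by limma between 12 and 3 months, where 0.784% of all transcripts were called, and 0 had an adjusted p under 0.05. No Prlr transcript but MSTRG.12085.1 had an unadjusted p under 0.05 there (7.46% of all transcripts did). That transcript chose the gene, so its p is no test. Between 24 and 12 months 13 could be tested, 11 had a higher fitted mean, 6 had an unadjusted p under 0.05 and 0 an adjusted p under 0.05. All 6 were higher, against 2.30% of all transcripts higher and 2.17% lower at that limit. The 6 include MSTRG.12085.1, which chose the gene, so its place among them is a description and no test. The transcripts share reads and are not independent. With a pseudocount of 0.1 in place of 1, which weighs low levels more, 1 was called between 12 and 3 months and 4 between 24 and 12 months. MSTRG.12085.1 was not kept out of these counts. Between 24 and 3 months, the contrast that chose the gene, MSTRG.12085.1 and ENSMUST00000127467 had log2 differences above 1, which is a description.

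The opposite-strand transcript MSTRG.12085.1 was higher at each later age. It was listed at 0 in 3-month mice 5 and 8 and was at 0.0566, 0.0592 and 0.0479 FPKM in mice 6, 7 and 9. It was at 0.801, 0.259, 0.539, 0.468 and 0.379 FPKM in 12-month mice 17 to 21. It was at 2.14, 1.61, 1.89, 1.32 and 2.33 FPKM in 24-month mice 31 to 35, so the 3 ages did not overlap.

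Behind the 3-month values stood 276 to 346 aligned bases in the 3 mice above 0, about the length of a single pair of reads. At 12 months 1624 to 5509 aligned bases fell on the transcript, and at 24 months 9069 to 15533. Because the 3-month level rests on so few reads, no fold against it is given.

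MSTRG.12085.1 was 0.52 ± 0.11 (SE) higher at 12 than at 3 months and 0.94 ± 0.14 higher at 24 than at 12 months. The log2 differences stayed under the limit of 1 in both steps, and the ratio of the means at 24 and 12 months was 3.79. From 3 to 24 months the difference was 1.46 ± 0.13. Each step uses the 3-month or the 24-month values that chose the transcript, so all of these differences are a description, with no test. Without overlap, 1.33% of all transcripts were higher at 12 than at 3 months and 0.431% were higher at 24 than at 12 months, and 10 of 129029 transcripts (0.00775%), 2 of them among 11124 intronic ones (0.0180%), were ordered by age in this way. The 4 leukocyte markers summed to 2.66 to 8.63 FPKM at 3 months, 8.75 to 14.1 FPKM at 12 months and 6.44 to 11.3 FPKM at 24 months, and their part in the first step was not tested.

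The intronic transcript also gained in its share of the Prlr signal. It made up 0.497 ± 0.522% of the summed FPKM at 3 months, 7.15 ± 1.66% at 12 months and 11.4 ± 3.44% at 24 months (SD, n = 5 each). The share was 0, 0.405, 1.05, 0 and 1.03% in the 3-month mice, 9.72, 6.26, 7.89, 6.15 and 5.71% in the 12-month mice and 15.7, 9.01, 8.84, 8.88 and 14.5% in the 24-month mice.

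The share was 6.65 percentage points higher at 12 than at 3 months without overlap and 4.26 points higher at 24 than at 12 months with overlap, since mouse 17 was above 3 of the 24-month mice. Its numerator is the transcript that chose the gene, in 3-month or 24-month mice that entered that choice, so these differences are a description, with no test. The summed level of all other intronic transcripts was 3679 to 6859 FPKM at 12 months and 4777 to 7614 FPKM at 24 months, with overlap of the ages.

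Within an age, mice with more of the opposite-strand transcript did not have detectably more annotated Prlr. With each age centred on its mean, Pearson's r was 0.138 (permutation p = 0.467) and Spearman's rho 0.287 (permutation p = 0.381) over 15 mice. The 3-month mice, at 0 to 0.0592 FPKM of the opposite-strand transcript, could hardly show a link, so few mice inform these values. Without mice 6 and 35, which lay farthest from the median annotated level, r was -0.081. A pooled r is not given, since the ages form separate clusters in the intronic level.

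Counts of other prolactin signalling genes past the unadjusted limit are given beside the share over all genes, and a difference between them was not tested. Of 51 genes listed for the pathway, 49 had a row that could be tested and the ligand gene Prl and the milk protein gene Csn2 had none. Between 24 and 3 months 6 of the 49 were higher and 4 lower at an unadjusted p under 0.05, against 10.7% of all genes higher and 3.40% lower. Between 12 and 3 months 4 of the 49 were higher and 3 lower, against 10.4% and 2.99%. Between 24 and 12 months 1 of the 49 was higher and 1 lower, against 3.14% and 3.24%. The median log2 difference of the list was -0.0059, 0.0074 and 0.0031 in the 3 contrasts, beside 0.019, 0.021 and -0.00035 over all genes.

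Among receptors of the same class, 0 of 4 passed in any contrast by limma at the unadjusted limit. Ghr, the growth hormone receptor, was far more abundant than Prlr per length, at 86.4 ± 24.9, 73.5 ± 16.5 and 105.6 ± 45.04 FPKM at 3, 12 and 24 months. Its difference between 24 and 12 months was 0.46 ± 0.28 (adjusted p = 0.826), and the groups overlapped. The leptin receptor gene Lepr was at 2.44 to 7.22 FPKM in all mice and Epor at 0.846 to 2.30 FPKM. Growth hormone itself, Gh, was above 0 in 2 mice.

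Of 9 kinases and transcription factors, 1 was higher and 1 lower at 12 and at 24 months than at 3 months, and 0 passed between 24 and 12 months. Jak2, the receptor's kinase, was at 6.97 ± 1.42, 7.62 ± 0.488 and 8.80 ± 1.44 FPKM at the 3 ages and passed in none of the contrasts, and Stat5a, at 6.19 ± 1.002, 7.47 ± 0.716 and 6.81 ± 0.569 FPKM, did not either. Stat5b rose from 6.00 ± 0.893 to 8.16 ± 1.26 FPKM by 12 months (0.39 ± 0.12, limma, adjusted p = 0.223) and was at 8.19 ± 1.11 FPKM at 24 months. Stat3 fell from 41.6 ± 7.07 to 28.9 ± 2.97 FPKM by 12 months (-0.50 ± 0.12, adjusted p = 0.126) and was at 31.7 ± 4.14 FPKM at 24 months. Both passed the unadjusted limit in that step.

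Of 19 adaptors and cascade kinases, the MAP kinase kinase Map2k1 was lower at 24 than at 3 months (-0.23 ± 0.08), and Pik3r1, a regulatory subunit of phosphoinositide 3-kinase, was higher (0.31 ± 0.10). Map2k1 was also lower at 12 than at 3 months (-0.24 ± 0.08). Neither gene passed adjustment over all genes by limma.

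Of 9 inhibitors, 2 were higher at 12 than at 3 months, the phosphatase gene Ptpn6 (0.38 ± 0.12) and the ubiquitin ligase gene Btrc (0.66 ± 0.28), whose product recognises the phosphorylated receptor. Btrc (0.60 ± 0.26) and Socs1 (0.13 ± 0.04, at no more than 0.233 FPKM) were higher at 24 than at 3 months. The STAT5-induced inhibitor Cish was at 4.49, 2.29, 1.13, 6.75 and 2.03 FPKM at 3 months, at 1.69, 1.87, 1.65, 1.76 and 2.37 FPKM at 12 months and at 1.95, 4.12, 2.65, 3.16 and 2.72 FPKM at 24 months. It was the one pathway gene higher at 24 than at 12 months (0.43 ± 0.15, limma, adjusted p = 0.750), and the 3-month mice spanned both. Socs2, which also answers to STAT5, was at 6.78 ± 4.46, 5.23 ± 0.773 and 5.44 ± 2.02 FPKM and passed in none of the contrasts.

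Of 6 target genes tested, Ccnd1, the cyclin D1 gene, was the one pathway gene past adjustment over all genes, as 0.860% of all genes were between 24 and 3 months. It was at 29.7, 23.7, 39.2, 33.8 and 41.8 FPKM at 3 months, at 53.8, 71.6, 64.0, 74.4 and 75.0 FPKM at 12 months and at 72.6, 94.9, 63.9, 53.1 and 81.9 FPKM at 24 months. All 12-month and 24-month kidneys were above all 3-month ones, and the difference was 1.01 ± 0.16 at 12 months (limma, adjusted p = 0.0559) and 1.10 ± 0.19 at 24 months (adjusted p = 0.0398). Its step was between 3 and 12 months and that of Prlr between 12 and 24 months, while this difference in timing was not tested. Bcl6, a repressor that STAT5 is known to hold down, fell from 10.2 ± 5.24 to 4.91 ± 2.61 FPKM between 12 and 24 months (-0.87 ± 0.37, limma, adjusted p = 0.762), with overlap, and was also lower at 24 than at 3 months (-0.996 ± 0.40). Igf1 was higher at 24 than at 3 months (0.36 ± 0.16, adjusted p = 0.335).

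**Figure D4:**
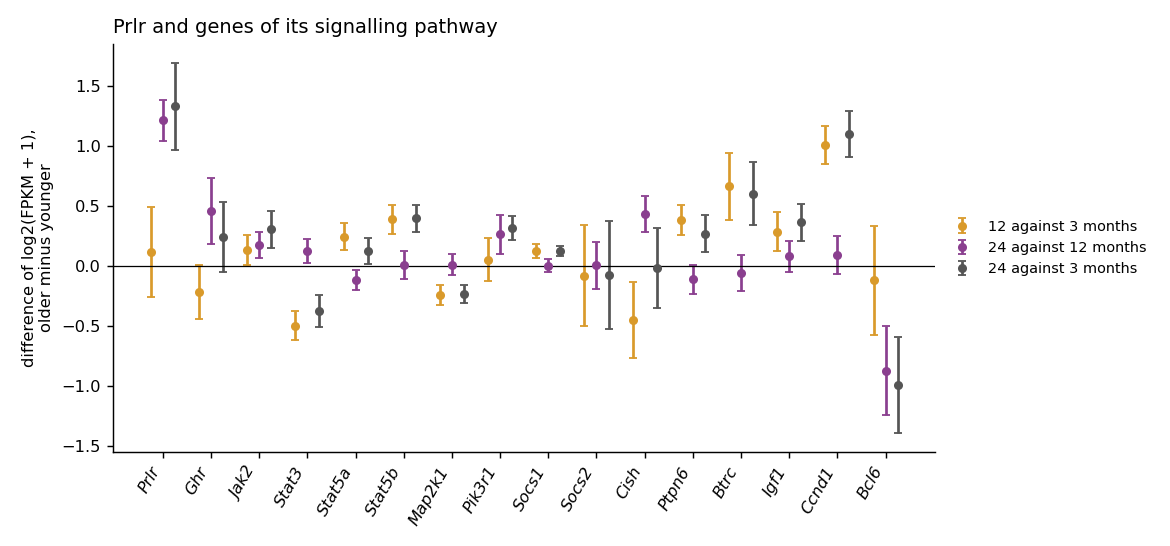
Differences of log2(FPKM + 1), older minus younger, with standard errors (n = 5 mice per age), in the 3 contrasts, which share mice. Shown are Prlr and the pathway genes named in the text, except Lepr, Epor, Gh, Prl and Csn2. Prlr stands at 1.22 between 24 and 12 months, Ccnd1 at 1.01 between 12 and 3 months, and most of the other genes lie near 0. The values of Prlr between 24 and 3 months are a description.

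Around Prlr, 10 other genes had a transcript within 500 kb. By limma at an unadjusted p under 0.05, 3 of them were higher at 24 than at 3 months (10.7% of all genes), 2 at 12 than at 3 months (10.4%) and 0 at 24 than at 12 months (3.14%), and 0 were lower. Agxt2, a mitochondrial aminotransferase gene just downstream, went from 23.8 ± 4.50 to 29.0 ± 2.75 FPKM between 3 and 12 months (0.29 ± 0.13, adjusted p = 0.370) and was at 30.9 ± 0.846 FPKM at 24 months (0.09 ± 0.07 from 12 months, adjusted p = 0.826). An assembled transcript assigned to Agxt2, MSTRG.12084.15, began inside Prlr at 10325380 and so overlaps it. It was listed at 0 in 2 mice of each age and reached 1.71 FPKM, and it was at 0.532 ± 0.535 FPKM at 24 months, below 0.886 ± 0.822 FPKM at 12 months and within the spread.

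The genes whose levels followed the Prlr sum most closely over the 15 mice, among 14065 others with a mean of at least 1 FPKM, were Slc7a12 (Pearson's r = 0.919 on log2 values), Abcb1b (0.887), Ddhd2 (0.880), Otud7b (0.866) and Ano9 (0.858). They were named for this likeness, so it is a description. Slc7a12, an amino acid transporter gene of the kidney tubule, was at 6.02, 51.9, 14.6, 29.7 and 20.8 FPKM at 3 months and had its lowest and highest 3-month value in mice 5 and 6, as Prlr did. It was at 29.3, 10.6, 27.0, 15.5 and 19.1 FPKM at 12 months and at 38.4, 37.3, 47.0, 41.2 and 34.9 FPKM at 24 months, with mouse 18 lowest at 12 months and mouse 33 highest at 24 months, again as for Prlr. Abcb1b, a drug efflux pump gene, went from 2.83 ± 1.31 through 3.89 ± 0.838 to 5.41 ± 0.572 FPKM.

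For the opposite-strand transcript the closest genes were Hap1 (r = 0.928), Gm42944 (0.893), Pms2 (0.889), Cygb (0.877) and Gm43042 (0.874), and none of them was among the 5 closest to the Prlr sum. Hap1 was at 0.754 ± 0.198, 1.05 ± 0.248 and 2.02 ± 0.192 FPKM at 3, 12 and 24 months. Cygb, the cytoglobin gene, was at 1.44 ± 0.639, 2.44 ± 1.08 and 4.95 ± 1.06 FPKM. The lowest r was that of Ndrg1 (-0.922), a gene of the hypoxia response, which was at 978 ± 163, 599 ± 75.0 and 324 ± 71.8 FPKM. All mice of 3 ages enter these values, so any gene that moves with age can score highly.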

How the data were processed

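Kidney RNA of 15 mice was depleted of ribosomal RNA and made into stranded libraries per the labels, while the study's methods describe oligo(dT) purification. Reads were trimmed (Cutadapt), aligned to GRCm38 with HISAT2 and Bowtie2 (annotation of Ensembl release 88) and assembled and merged with StringTie by the authors, who deposited FPKM and mean coverage per transcript. The submitters' processing notes name TopHat2. The deposited estimated counts of circular RNAs, whose making is not given in the sources used here, served only to look for Prlr. FPKM carry no read counts, so no counting intervals are given.

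Transcripts with a value above 0 in any mouse of a contrast, and FPKM summed per gene, were fitted on log2(FPKM + 1) with limma 3.58.1 (R 4.3.3, mean-variance trend), with only the mice compared in each fit, and adjusted by Benjamini-Hochberg over all features. The pseudocount understates changes of low transcripts. The script was tested on simulated data. The correlation was tested by 100000 permutations within ages. The exact permutation test planned for the intronic share is not printed, since its mice had chosen the transcript. Replicates are separate mice. The members, lists and tests were chosen with earlier results of these data known. Named were Prlr transcripts with a mean of at least 1 FPKM, intronic or called, 6 core pathway genes, each pathway gene past the unadjusted limit and the 5 genes most like each pattern, and others where a count needed them. Some pathway genes that enter the counts are not reported here. Positions and annotation come from the files, GENCODE M21 and RefSeq (GRCm38).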

Additional observations from a re-analysis of the deposited data

Results flagged for a closer look

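Within each age of 5 mice, a value was singled out when its gap to the nearest other mouse took up more of the group's range than Dixon's 95% critical value allows. Of 108 groups examined for the transcripts and genes named here, 15 were singled out. Chance singles out about 1 in 20 groups only where values are normally spread. A group with 4 mice at 0 and 1 above is singled out by the rule itself, so the count cannot be set against that rate. Transcripts of a gene share reads, so the 13 values for Prlr are not independent of each other. No cause was tested for any of them.

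Mouse 6 at 3 months was the highest of its age for ENSMUST00000005400 (2.84 FPKM, next 0.278), ENSMUST00000124470 (1.99 FPKM, next 0.062), ENSMUST00000128921 (0.588 FPKM, next 0.0058) and ENSMUST00000134410 (0.229 FPKM, others at 0). The same mouse was highest for the sum of the first annotated start (4.93 FPKM, next 0.622) and for its share of Prlr (35.3%, next 9.94%). Mouse 18 at 12 months was highest for ENSMUST00000005400 (0.737 FPKM, next 0.326), ENSMUST00000137867 (0.0571 FPKM, others at 0) and ENSMUST00000128921 (0.865 FPKM, next 0.0176), and it had the lowest Stat5a (6.20 FPKM, next 7.63).

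Mouse 35 at 24 months was lowest for MSTRG.12084.12 (0.503 FPKM, next 6.36) and highest for ENSMUST00000005400 (0.886 FPKM, next 0.433). Mouse 8 at 3 months was highest for ENSMUST00000145428 (0.323 FPKM, next 0.018), mouse 20 at 12 months for ENSMUST00000148257 (0.036 FPKM, others at 0) and mouse 31 at 24 months for Bcl6 (9.56 FPKM, next 4.07).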

How the results depend on the processing

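The rise of the Prlr sum between 12 and 24 months kept its direction and its call under the alternatives run, with a log2 difference of 1.08 to 1.29 when each mouse was left out, except that the annotated transcripts alone gave 0.80, short of the limit of 1. The sum between 12 and 3 months ran from -0.184 without 3-month mouse 5, which turned its direction, to 0.389, and passed the test in no run. Called Prlr transcripts went from 0 to 1 between 12 and 3 months and from 1 to 4 between 24 and 12 months with a pseudocount of 0.1, and to the same counts on TPM, where each mouse is rescaled to the same sum, and leaving out a mouse gave 1 to 2 between 24 and 12 months, 2 without 12-month mouse 17, 24-month mouse 34 or 24-month mouse 35. MSTRG.12085.1, which chose the gene, was not kept out of these counts of called transcripts. The difference of the intronic share between 24 and 12 months, a description, ran from 3.17 to 4.90 percentage points when a mouse was left out, and over the annotated transcripts alone the ratio was 17.1 points higher. The centred correlation turned to -0.081 without the 2 farthest mice. Pathway genes past the unadjusted limit went from 7 to 12 between 12 and 3 months and from 2 to 0 between 24 and 12 months with all 15 mice in the fit, and ran from 1 to 4 between 24 and 12 months when a mouse was left out, 1 without 12-month mouse 17 or 24-month mouse 34 and 4 without 12-month mouse 21.

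When a mouse was left out, the difference of the intronic share between 12 and 3 months ran from 6.01 to 7.01 points, and the pathway genes past the limit between 24 and 3 months from 7 to 11. The rows summed, and all transcripts on the strand of Prlr in the correlation, were alternatives chosen after seeing the data. Limiting the share to intronic transcripts with a mean of at least 1 FPKM left none, and the alternatives for circular RNAs had nothing to test, so neither was run. No paired analysis was possible because the ages share no replicate numbers. The depth of 5.03 to 8.03 gigabases put the 3-month level of MSTRG.12085.1 at or near a single read pair per mouse.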

Other observations

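Genes known as raised by androgens in the kidney of male mice were looked at after their values were seen, since Gusb, the beta-glucuronidase gene, was among the 3 genes with the lowest r to the Prlr sum (-0.845). Because of that choice, their differences and p-values are a description and no test. Odc1, the ornithine decarboxylase gene, was at 162.4 ± 28.3 FPKM at 12 months and 112.5 ± 10.7 FPKM at 24 months (SD, n = 5 each), a log2 difference of -0.51 ± 0.12 (limma, adjusted p = 0.617). Slco1a1, an organic anion transporter gene, differed by -0.97 ± 0.25 (adjusted p = 0.658) and Acsm3 by -0.44 ± 0.11 (adjusted p = 0.620). Kap differed by -0.45 ± 0.74 (adjusted p = 0.885) and Cyp7b1 by -0.41 ± 0.23 (adjusted p = 0.826). Between 24 and 3 months Odc1 differed by -0.24 ± 0.37 (adjusted p = 0.787) and Slco1a1 by -0.91 ± 0.49 (adjusted p = 0.456). In that contrast Acsm3 differed by -0.62 ± 0.43 (adjusted p = 0.566) and Cyp7b1 by -0.82 ± 0.33 (adjusted p = 0.293). In 3-month mouse 6, where Prlr was highest of its age, Odc1 was at 68.2 FPKM and Slco1a1 at 9.68 FPKM, and in mouse 5, where Prlr was lowest, they were at 243.8 and 67.0 FPKM. Acsm3 and Gusb were also lowest of that age in mouse 6 and highest in mouse 5. Kap was lowest in mouse 8 (4830 FPKM) and highest in mouse 7 (9428 FPKM), and Cyp7b1 was highest in mouse 7 (53.5 FPKM). A link of these genes to Prlr was not tested.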
